A study of Mus musculus with 8 samples.

Results

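The genes described here are 10 genes of antigen presentation through MHC class II and of dendritic cells: H2-Aa, H2-Ab1, H2-Eb1, H2-DMa, H2-DMb1, Cd74, Ciita, Itgax, Flt3 and Ccr7. They were chosen by name, and every noncontrol probe that the array design assigns to one of them was taken, which gave 12 probes among the 32484 tested, and 10 genes among 23830. Expression was measured in carotid arteries of female mice aged 6 weeks on a western-type diet, 14 days after the artery had been injured with a wire, an injury that strips the endothelium and is followed by growth of a new inner layer. miR-126 is a microRNA made mainly by the endothelium, and the study compared injured arteries without it, from 4 miR-126-/-/ApoE-/- mice, with those of 4 miR-126+/+/ApoE-/- mice. All 8 mice therefore lack apolipoprotein E, which raises plasma cholesterol, and all are of mixed genetic background. Each mouse gave 1 single-colour array. No gate or sort was applied, so each value is that of the whole piece of artery with whatever tissue came with it.

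MHC class II molecules are pairs of an alpha and a beta chain on the surface of antigen-presenting cells, and they show peptides from engulfed proteins to CD4+ T cells. The chains assemble with the invariant chain, the product of Cd74, which fills the groove until it is degraded, and the H2-DM pair then exchanges the remaining fragment for antigen peptides. Ciita encodes the transactivator that switches the pathway on, constitutively in dendritic cells and B cells and after interferon gamma in macrophages, endothelium and smooth muscle. Dendritic cells lie in the wall of normal arteries and accumulate in atherosclerotic ones. Itgax encodes CD11c, the integrin most used to mark dendritic cells although macrophages of fatty arteries carry it too, Flt3 encodes the receptor for the cytokine that drives their development, and Ccr7 encodes the chemokine receptor that takes mature dendritic cells and T cells to lymph nodes.

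Class II genes share a promoter module a short way upstream of the start of transcription, made of the X box, bound by the RFX complex, an X2 box, bound by CREB, and the Y box, which reads CCAAT on one strand and is bound by NF-Y; CIITA is recruited to all 3. Of the 10 genes, 6 had an upstream sequence in the RefSeq promoter table (assembly GRCm38.p6). The stretches from -110 to -31 of H2-Aa, H2-Eb1 and H2-DMb1 are shown, and of H2-Ob, which encodes a chain of the modulator of H2-DM. Each holds a Y box, and all but H2-DMb1 also hold a searched X box core or X2 box motif. None holds all 3 by these letters. Capitals mark the Y box (CCAAT or its reverse ATTGG), the X box core TAGCAAC, and in H2-Aa the run that holds the X2 box motif TGACG on both strands.
H2-Aa, chr17:34287854-34287933, minus strand: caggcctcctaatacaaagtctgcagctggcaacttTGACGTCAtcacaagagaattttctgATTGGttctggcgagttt
H2-Eb1, chr17:34305757-34305836, plus strand: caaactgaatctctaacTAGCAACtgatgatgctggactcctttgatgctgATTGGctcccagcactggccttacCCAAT
H2-DMb1, chr17:34153081-34153160, plus strand: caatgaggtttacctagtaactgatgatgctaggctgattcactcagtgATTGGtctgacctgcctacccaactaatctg
H2-Ob, chr17:34238795-34238874, plus strand: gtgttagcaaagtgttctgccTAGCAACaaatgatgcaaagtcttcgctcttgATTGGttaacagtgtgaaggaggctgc

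The Y box began at -48 in H2-Aa, -59 in H2-Eb1, -61 in H2-DMb1 and -57 in H2-Ob, and H2-Eb1 held a second one at -35. The X box core TAGCAAC began at -93 in H2-Eb1 and -89 in H2-Ob. On both strands, over the 250 bases before each of 32851 RefSeq starts, CCAAT occurred in 33.8% of promoters, TAGCAAC in 3.16% and TGACG in 17.8%. CCAAT was found for 5 of the 6 members with a sequence, but for Itgax (-178) and for 1 of the 2 starts of H2-DMa (-198) it lay farther upstream, and Flt3 and the other H2-DMa start had none. These letters describe the windows only.

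None of the 10 genes passed the test between genotypes. In the main setting, H2-Aa, H2-Ab1, H2-Eb1, the peptide exchange genes H2-DMa and H2-DMb1 and the invariant chain gene Cd74 had slightly lower means in miR-126-/- arteries. Cd74 was higher in 4 of 21 alternatives, by up to 0.13 with normexp background correction. H2-DMa was higher with normexp (0.014) and H2-DMb1 without miR-126-/- 3 (0.0028). By the brightest probe of each, the 6 differences lay between -0.28 and -0.05 on the log2 scale. The 95% intervals of the 6 genes together ran from 0.653-fold to 1.29-fold, so a 2-fold difference in either direction lies outside each of them. Signals below are log2 processed intensities minus the array's 75th percentile, and differences are miR-126-/- minus miR-126+/+ with the standard error of the limma fit. Adjusted p-values are Benjamini-Hochberg values over all 32484 probes. In this whole tissue, fewer cells of a type and less RNA per cell cannot be told apart.

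H2-Aa, the alpha chain of the I-A molecule, had signals of 4.61, 4.66, 5.12 and 5.04 in miR-126+/+ mice 1 to 4 and 4.49, 4.49, 4.55 and 4.80 in miR-126-/- mice 1 to 4. The 2 highest values were those of miR-126+/+ 3 and 4, and the genotypes overlapped through miR-126-/- 4. Means were 4.86 ± 0.26 and 4.58 ± 0.15 (SD, n = 4 each), a difference of -0.28 ± 0.15 (95% interval -0.61 to 0.06; adjusted p = 0.605). Its probe lies at chr17:34421285-34421344 on mouse build mm9, per the array's own annotation.

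The beta chain of the same molecule, H2-Ab1, was read by 2 probes that overlap and cover nearly the same bases of the mm9 locus (chr17:34406296-34406355 and chr17:34406305-34406363). They are shown because they differ at 1 of their 51 shared bases, T51C counted from the 5′ end of probe 1, marked by the capital letter, in a gene that differs between mouse strains. The stretches cover bases 31 to 60 of probe 1 and 22 to 51 of probe 2.
H2-Ab1 probe 1: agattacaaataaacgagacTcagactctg
H2-Ab1 probe 2: agattacaaataaacgagacCcagactctg

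Probe 1 of H2-Ab1 gave 7.09, 7.07, 7.38 and 7.28 in miR-126+/+ mice and 7.16, 6.99, 6.98 and 7.12 in miR-126-/- mice. Probe 2 gave 6.94, 6.95, 7.26 and 7.09 against 7.04, 6.91, 6.83 and 7.03. Both placed miR-126+/+ 3 highest and miR-126-/- 3 lowest, with overlap of the genotypes. The differences were -0.15 ± 0.10 (adjusted p = 0.717) and -0.11 ± 0.10 (adjusted p = 0.787). The signal of probe 1 minus that of probe 2 stayed between 0.082 and 0.198 log2 units over the 8 arrays, and the probes had an r of 0.962.

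H2-Eb1, the beta chain of the I-E molecule, gave 6.63, 6.67, 7.13 and 6.87 in miR-126+/+ mice and 6.77, 6.62, 6.58 and 6.87 in miR-126-/- mice. Again miR-126+/+ 3 was the highest array and miR-126-/- 3 the lowest. The difference was -0.11 ± 0.13 (95% interval -0.43 to 0.20; adjusted p = 0.833), and without miR-126+/+ 3 it was -0.013. The probe of H2-Ea-ps, the name of the partner alpha chain gene in strains that have lost it, was not well above background on any of the 8 arrays, with signals from -7.37 to -5.52.

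For the H2-DM pair, both differences were smaller than the SD between mice of either genotype. H2-DMa gave 2.11, 2.12, 2.24 and 2.58 in miR-126+/+ mice and 1.98, 2.0, 2.28 and 2.32 in miR-126-/- mice (difference -0.12 ± 0.14, adjusted p = 0.835). H2-DMb1, its partner, gave 3.68, 3.78, 3.92 and 3.88 against 3.90, 3.72, 3.57 and 3.83 (difference -0.06 ± 0.10, adjusted p = 0.898). The 2 genes did not share an order of mice: miR-126+/+ 4 was highest for H2-DMa and miR-126+/+ 3 for H2-DMb1.

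Cd74 gave 6.09, 5.77, 6.43 and 6.56 in miR-126+/+ mice and 6.33, 6.08, 6.03 and 6.23 in miR-126-/- mice. Both the highest and the lowest array belonged to miR-126+/+ mice, so the miR-126-/- values lay within their range. Means were 6.21 ± 0.35 and 6.17 ± 0.14 (SD, n = 4 each), and the difference was -0.05 ± 0.18 (95% interval -0.46 to 0.36; adjusted p = 0.955).

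**Figure D1:**
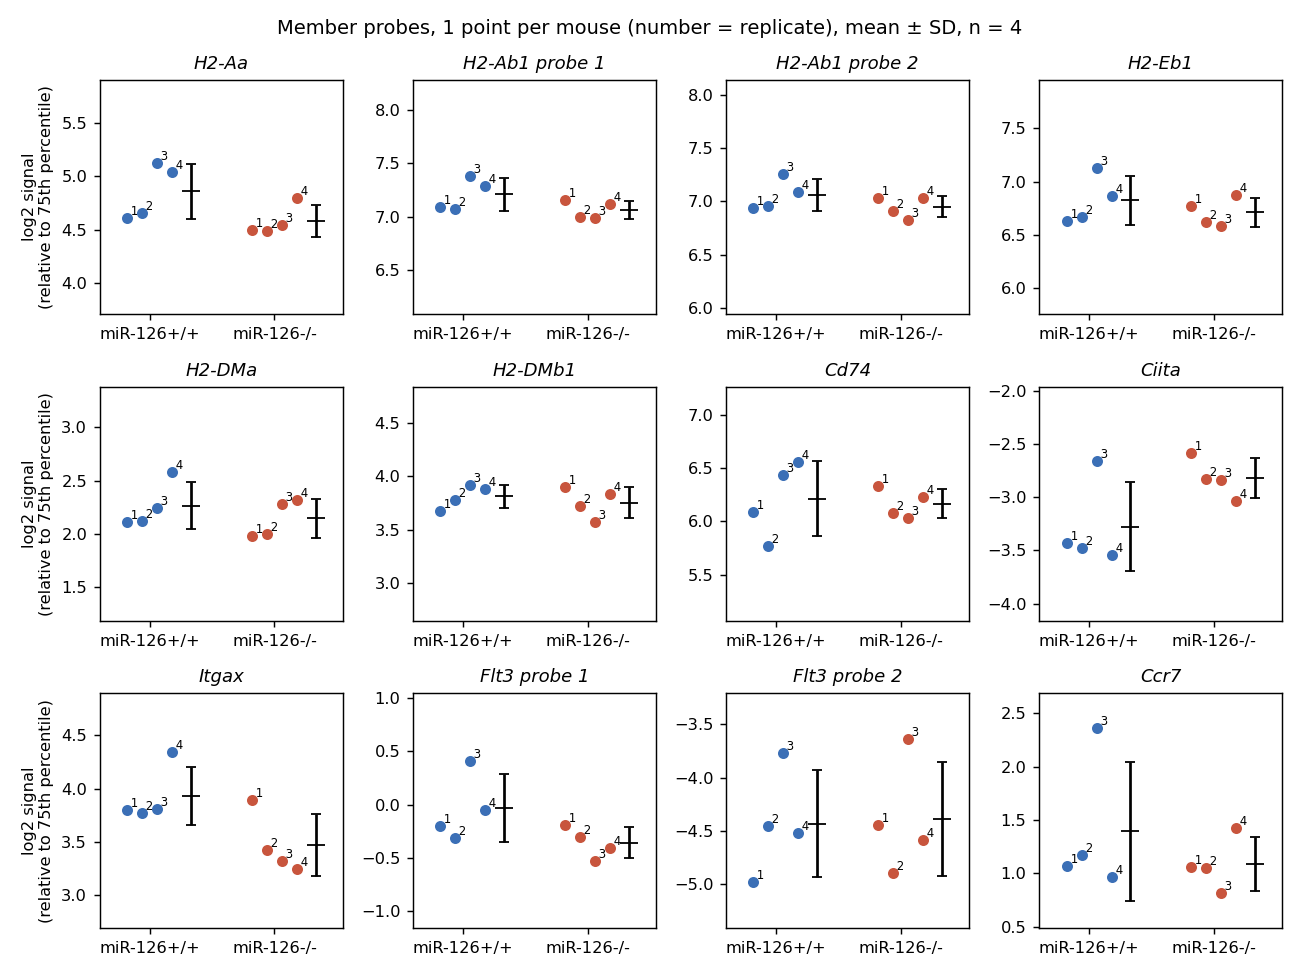
Log2 signal minus the 75th percentile of its array (vertical axis), for each of the 12 probes, with 1 point per mouse and a bar at the mean with its SD for the 4 miR-126+/+ and the 4 miR-126-/- mice. The genotypes overlap for every probe, and the point of miR-126+/+ 3 stands apart for Ciita (-2.66) and Ccr7 (2.36).

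Ciita was the one gene whose mean was higher in miR-126-/- arteries by its brightest probe. It gave -3.43, -3.48, -2.66 and -3.54 in miR-126+/+ mice and -2.58, -2.83, -2.84 and -3.04 in miR-126-/- mice. Only miR-126+/+ 3, at -2.66, lay among the miR-126-/- values. The difference was 0.46 ± 0.21 (95% interval -0.03 to 0.94; adjusted p = 0.536), and over the alternatives it ran from 0.26 with normexp (adjusted p = 0.563) to 0.66 without miR-126+/+ 3 (adjusted p = 0.192). The signal was well above background on all 8 arrays.

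Of the dendritic cell genes, Itgax had the smallest p-value of the 12 probes. It gave 3.80, 3.77, 3.81 and 4.34 in miR-126+/+ mice and 3.89, 3.43, 3.32 and 3.25 in miR-126-/- mice. The value of miR-126-/- 1 lay above 3 of the 4 miR-126+/+ values, and the other 3 miR-126-/- mice lay below all of them. Means were 3.93 ± 0.27 and 3.47 ± 0.29 (SD, n = 4 each), and the difference was -0.46 ± 0.19, which is 0.727-fold (95% interval 0.541 to 0.978). The unadjusted p was 0.038 and the adjusted p 0.470 in limma. Over the alternatives the difference ran from -0.65 to -0.32 and the adjusted p from 0.288 to 0.721.

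Flt3 was read by 2 probes in different places of the gene (chr5:148142576-148142635 and chr5:148178496-148178555, mm9). Probe 1 gave -0.20, -0.31, 0.41 and -0.05 in miR-126+/+ mice and -0.19, -0.31, -0.53 and -0.40 in miR-126-/- mice. The highest array was once more miR-126+/+ 3 and the lowest miR-126-/- 3, and the difference was -0.32 ± 0.17 (adjusted p = 0.595), or -0.17 without miR-126+/+ 3. Probe 2, well above background on 3 of 4 miR-126+/+ and 4 of 4 miR-126-/- arrays, ranged from -4.98 to -3.63 and gave a difference of 0.04 ± 0.33 (adjusted p = 0.979). The probes had an r of 0.224 over the 8 arrays and so did not give the same order of mice.

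Ccr7 gave 1.07, 1.17, 2.36 and 0.97 in miR-126+/+ mice and 1.06, 1.05, 0.81 and 1.43 in miR-126-/- mice. A single mouse, miR-126+/+ 3, set the miR-126+/+ mean of 1.39 ± 0.65 (SD, n = 4), against 1.09 ± 0.25 (SD, n = 4). The difference was -0.30 ± 0.31 (adjusted p = 0.800), and without miR-126+/+ 3 it was 0.019 (adjusted p = 0.979). The T cell list, whose cells also carry Ccr7, was highest within its genotype in the same mice as Ccr7: its summed signal was 19.0 in miR-126+/+ 3 and 6.16 to 8.23 in the other miR-126+/+ mice, and 31.1 in miR-126-/- 4. The mean of 6 lymph node stroma genes was also centred over the 8 arrays. It was 0.78 in miR-126+/+ 3 and at most -0.08 in the other miR-126+/+ mice. The summed signal of these genes in miR-126+/+ 3 (106.1) lay below that of miR-126+/+ 1 (115.8) and 4 (113.8). However, the sums came almost wholly from 1 gene, Ccl21a, with log2 signals of 6.72 in miR-126+/+ 3, 6.85 in 1 and 6.82 in 4. They therefore say little of the other genes of that list. The part of these cells in the Ccr7 value was not tested.

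Over all 12 probes, 10 had a lower and 2 a higher mean in miR-126-/- arteries, with a median difference of -0.12. Without the single array miR-126+/+ 3, 8 were lower and 4 higher, with a median of -0.03. Over all probes tested the share with a lower mean was 51.4%. In limma 0 of the 12 passed at an adjusted p under 0.05, where 0.04% of all probes did. At an unadjusted p under 0.05, 1 (Itgax) was lower, where 3.97% of all probes were, and 0 were higher, where 5.93% were. The genotypes did not overlap for 0 of the 12 probes and for 6.06% of all probes. For 6 of the 12 probes the lowest of the 8 arrays was miR-126-/- 3, and for 7 the highest was miR-126+/+ 3. The probes of the 5 class II genes on chromosome 17 lie within 178.8 kb on mm9, so they are neighbours as well as relatives.

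The level of class II transcripts varied between mice in a partly shared way, for H2-Aa and Cd74 less so without miR-126+/+ 3 and 4. Centred over the 8 arrays, the mean of H2-Aa, H2-Ab1, H2-Eb1 and Cd74 was 0.31 in miR-126+/+ 3 and 0.23 in miR-126+/+ 4. It was -0.10 and -0.16 in miR-126+/+ 1 and 2, and -0.02, -0.16, -0.17 and 0.05 in miR-126-/- mice 1 to 4. The 2 high mice were thus both miR-126+/+, and the other 2 miR-126+/+ mice lay within the range of the miR-126-/- mice.

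Against H2-Ab1 probe 1, 19 relations were computed over the 8 arrays, with exact permutation p-values adjusted over the 19. H2-Eb1 had an r of 0.925 (adjusted exact p = 0.018) and a rho of 0.905 (adjusted exact p = 0.029), and its r was 0.775 without the 2 mice farthest from the median, miR-126+/+ 3 and 4. Flt3 probe 1 had an r of 0.908 (adjusted exact p = 0.018) and a rho of 0.833 (adjusted exact p = 0.073), with an r of 0.614 without those mice. H2-Aa had an r of 0.882 (adjusted exact p = 0.045) and a rho of 0.690 (adjusted exact p = 0.220). Its r was 0.332 without both miR-126+/+ 3 and 4, and 0.777 without miR-126+/+ 3 alone. Leaving out the mice farthest in H2-Ab1 also narrows its range, so how far the relation rests on them was not settled. The r of H2-Eb1, Flt3 probe 1 and H2-Aa were the 3 that passed. H2-DMb1 (r = 0.816) and Cd74 (r = 0.777) passed by rho only (0.905, adjusted exact p = 0.029 each). Without miR-126+/+ 3 and 4 their r was 0.838 and 0.494. The r of Ccr7 (0.711), Itgax (0.641), H2-DMa (0.456) and Ciita (0.040) did not pass. Without miR-126+/+ 3 alone these became 0.131, 0.811, 0.579 and -0.415. Without both miR-126+/+ 3 and 4 they were 0.584, 0.532, -0.151 and -0.023. Since genotypes differ in mean, r was also computed on deviations from each genotype's mean: it was 0.946 for H2-Eb1, 0.863 for Flt3, 0.824 for H2-Aa, 0.875 for Cd74, 0.838 for H2-DMb1, 0.670 for Ccr7, 0.615 for Ciita, 0.425 for Itgax and 0.350 for H2-DMa. All arrays lay on 1 slide and 1 scan, with miR-126+/+ mice in slide row 1 and miR-126-/- mice in row 2, so the genotype and the row on the slide cannot be told apart.

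**Figure D2:**
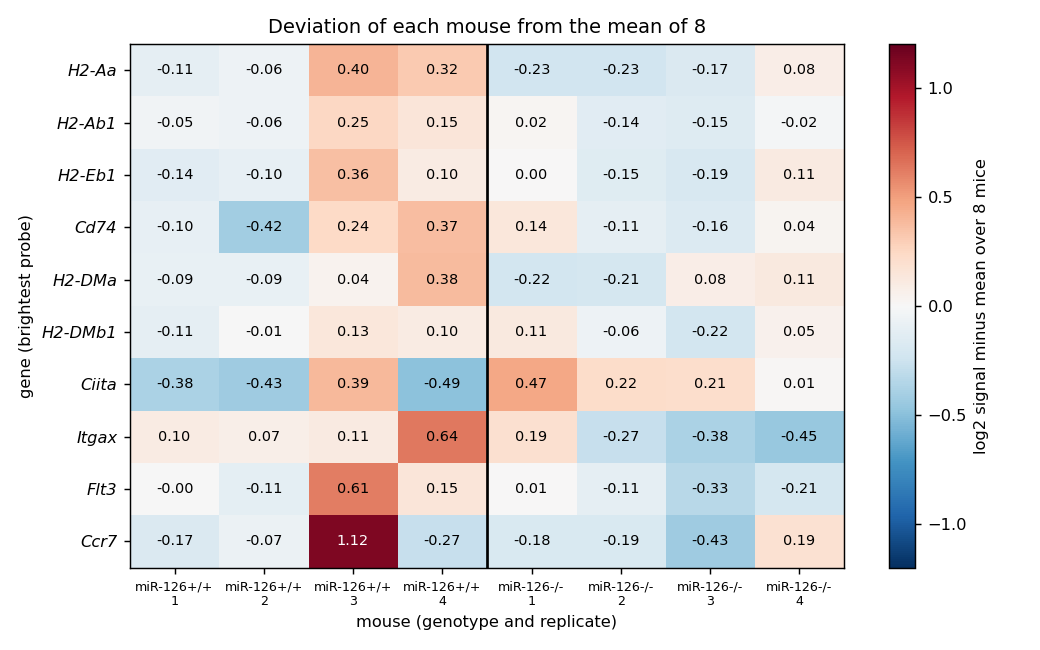
Heat map of log2 signals centred over the 8 arrays for the brightest probe of each of the 10 genes (rows) in each mouse (columns, miR-126+/+ left of the line and miR-126-/- right of it), with the colour scale in log2 units. The column of miR-126+/+ 3 holds the highest value of 6 of the 10 genes.

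By the same measure over the 8 arrays, the genes most like the class II mean among 13835 candidates were Ccdc151 (r = 0.957), Qpctl (0.949), Spns3 (0.941), Pola2 (0.941) and Fbrs (0.939). Those most like Itgax were Plcb2 (0.938), Rbmx (0.913), Prm2 (0.911), Phlpp2 (0.909) and Sh2d1b1 (0.905). With 8 arrays and so many candidates these values are a description.

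Other genes of the class II pathway were split evenly between higher and lower. Of 18 listed, 16 were tested, and H2-Ea-ps and Rfx5, a subunit of the X box complex, did not pass the filter on dim probes. By their brightest probes, miR-126-/- arteries had higher means for 8 and lower means for 8, with a median of -0.01 where all genes had -0.0050, and 0 passed in limma, where 0.0504% of all genes did. At an unadjusted p under 0.05 1 was higher, where 6.29% of all genes were, and 1 lower, where 3.78% were. The higher one was March1, a ubiquitin ligase that removes class II from the surface of dendritic cells and B cells. It gave 0.81, 1.27, 2.04 and 2.48 in miR-126+/+ mice and 2.89, 3.02, 3.02 and 3.02 in miR-126-/- mice. These values did not overlap, as for 6.06% of all probes, and gave a difference of 1.34 ± 0.33 (adjusted p = 0.249), but the other March1 probe gave -0.15. Nfyb, a subunit of the Y box factor, was the lower one (-0.32 ± 0.11, adjusted p = 0.396), and its other probes gave -0.14 and -0.28. H2-Ob gave 0.27 ± 0.18 (adjusted p = 0.683).

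Dendritic cell genes beyond the members were likewise divided: 19 of 22 were tested, and 9 had a higher and 10 a lower mean. The median was -0.02, and 0 passed in limma, where 0.0504% of all genes did. At an unadjusted p under 0.05 1 was higher, where 6.29% of all genes were, and 1 lower, where 3.78% were. Of the dendritic cell markers listed, Xcr1 (a receptor of the cross-presenting subset) and the chemokine gene Ccl22 were not well above background on any array. Ly75, an endocytic receptor, was well above it on 1 array. The transcription factor genes Zbtb46 (0.09), Batf3 (-0.11) and Irf8 (-0.02) and the receptor gene Clec9a (-0.07) were well above background on all 8 arrays. Their differences are in brackets. They were listed as dendritic cell genes, but in whole tissue their signals were not assigned to 1 cell type. At an unadjusted p under 0.05, Irf4, a factor of the CD11b+ subset and of plasma cells, was higher (0.75 ± 0.28, adjusted p = 0.427) and Ccl17, a chemokine of mature dendritic cells, lower (-0.80 ± 0.33, adjusted p = 0.477). Itgb2, the chain that pairs with CD11c, gave -0.19 ± 0.10 (adjusted p = 0.603). Among the rest of the list, the largest differences in either direction were those of Cd209a, Cd207, Itgae and Siglech. They were -0.99 ± 1.02 (other probe -1.08), 0.48 ± 0.38, -0.42 ± 0.25 and 0.38 ± 0.61 (other probe -0.67). None of these had an unadjusted p under 0.05 in limma by its brightest probe. Cd207 was well above background on only 4 of the 8 arrays, with signals from -5.57 to -3.73.

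Of the ligands and inducers of the members, 16 of 17 were tested. The mean was higher for 3 (4 with quantile scaling or the deposited table) and lower for 13, where 51.1% of all genes were lower. The median was -0.10, and 0 passed in limma, where 0.0504% of all genes did. Csf2ra, a chain of the receptor for the growth factor GM-CSF, was the one with an unadjusted p under 0.05 in limma. It was lower, where 3.78% of all genes were lower at that threshold. It gave 4.78, 4.82, 4.78 and 4.95 in miR-126+/+ mice and 4.58, 4.53, 4.68 and 4.58 in miR-126-/- mice. These did not overlap, as for 6.06% of all probes (difference -0.24 ± 0.08, adjusted p = 0.390). Its ligand gene Csf2 gave -0.64 ± 0.36 (adjusted p = 0.640) and the interferon gamma receptor gene Ifngr1 0.18 ± 0.11 (adjusted p = 0.656).

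Among the costimulation genes, whose products give T cells the second signal, 7 of 9 were tested. Of these 1 was higher and 6 lower (median -0.11), and none had an unadjusted p under 0.05. At that threshold 6.29% of all genes were higher and 3.78% lower, and 51.1% of all genes had a lower mean. Cd80 gave -0.27 ± 0.15, Cd40 0.23 ± 0.12 and Pdcd1lg2, an inhibitory ligand, -0.37 ± 0.35, with adjusted p from 0.610 to 0.784. All 14 genes of the class I pathway, which presents peptides from inside the cell, were tested, of which 4 had a higher and 10 a lower mean (median -0.06). The class I heavy chain gene H2-D1 gave -0.21 ± 0.13, its light chain gene B2m -0.20 ± 0.11 and the peptide transporter gene Tap1 -0.18 ± 0.14, and none of the 14 had an unadjusted p under 0.05. Under quantile scaling, normexp, another percentile or the deposited table, the split moved by at most 1 gene in each of these 5 lists. The counts at an unadjusted p under 0.05 in limma changed with normexp. They were then 1 higher and 1 lower for costimulation and 1 lower for class I. For other dendritic cell genes they were 1 higher and 2 lower, and for ligands and inducers 0.

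**Figure D3:**
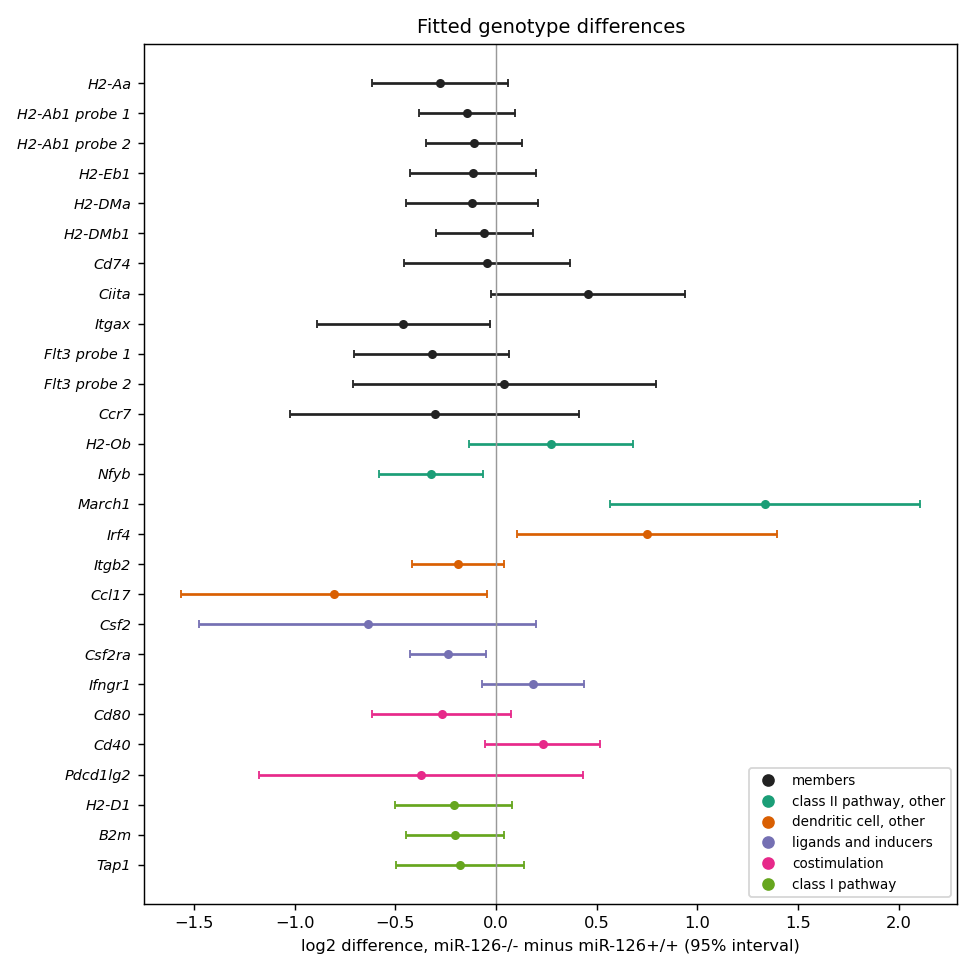
Difference in log2 signal, miR-126-/- minus miR-126+/+ (horizontal axis), with the 95% interval of the limma fit as a line, for the 12 member probes (black) and for the genes named from the 5 lists (1 colour per list). Of the 12 member probes, only Itgax has an interval (-0.89 to -0.03) that leaves out 0, without adjustment for the number of probes tested.

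Markers of the vessel wall were read first. All 8 smooth muscle and all 8 endothelial genes listed passed the filter, as did all 8 fat cell and all 10 T cell genes. Passing it therefore cannot check the tissue label. Of the smooth muscle and of the endothelial genes 7 each were higher (medians 0.20 and 0.21), where 51.1% of all genes were lower. Of these, 1 smooth muscle and 2 endothelial genes were higher at an unadjusted p under 0.05 in limma, where 6.29% of all genes were. With normexp, 4 endothelial genes were. Summed signals of smooth muscle genes were 316 to 375 in miR-126+/+ and 296 to 478 in miR-126-/- arteries. Those of skeletal muscle genes (7 of 8 passed) were 3.09 to 77.5 and 5.48 to 110. Lists of other cells that carry class II were read beside the members. Macrophage genes (11 of 12 passed) had a summed signal, in multiples of the 75th percentile, of 267 to 328 in miR-126+/+ and 237 to 367 in miR-126-/- arteries. Of the 6 genes common to leukocytes all were lower, by a median of 0.07, and 1 was higher with normexp or the deposited table; their sums were 91.6 to 109 against 81.0 to 107.3.

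B cells carry class II too. Of 10 listed, 8 passed the filter and 6 of these were higher, 7 with the deposited table. At an unadjusted p under 0.05 in limma 4 of the 8 were higher (3 with normexp), where 6.29% of all genes were. At that threshold 0 were lower, where 3.78% were. Their summed signal was 3.57 to 5.20 in miR-126+/+ and 8.38 to 19.7 in miR-126-/- arteries, without overlap. Most of the miR-126-/- sums came from 1 gene, Jchain, the joining chain of secreted antibodies (difference 2.30 ± 0.36, adjusted p = 0.100). Without it, a reading added after its values were seen, the sums were 2.21 to 2.76 and 2.24 to 4.42 and overlapped, as did the centred means of the 8 genes (-0.54 to 0.00046 and -0.28 to 0.87). The B cell defining genes Cd79a and Pax5 did not pass the filter. All 10 T cell genes were higher, with sums of 6.16 to 19.0 against 8.95 to 31.1 and none at an unadjusted p under 0.05. Of fat cell genes all 8 were higher by a median of 1.24, with sums of 238 to 519 against 508 to 896. At an unadjusted p under 0.05 in limma 7 of the 8 were higher, where 6.29% of all genes were. Against H2-Ab1 the r over 8 arrays was -0.350 for the B cell list, 0.136 for macrophages, 0.110 for T cells, 0.561 for common leukocyte genes and -0.529 for fat cells, and none passed. The part of these cells in the members' values was not tested.

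**Figure D4:**
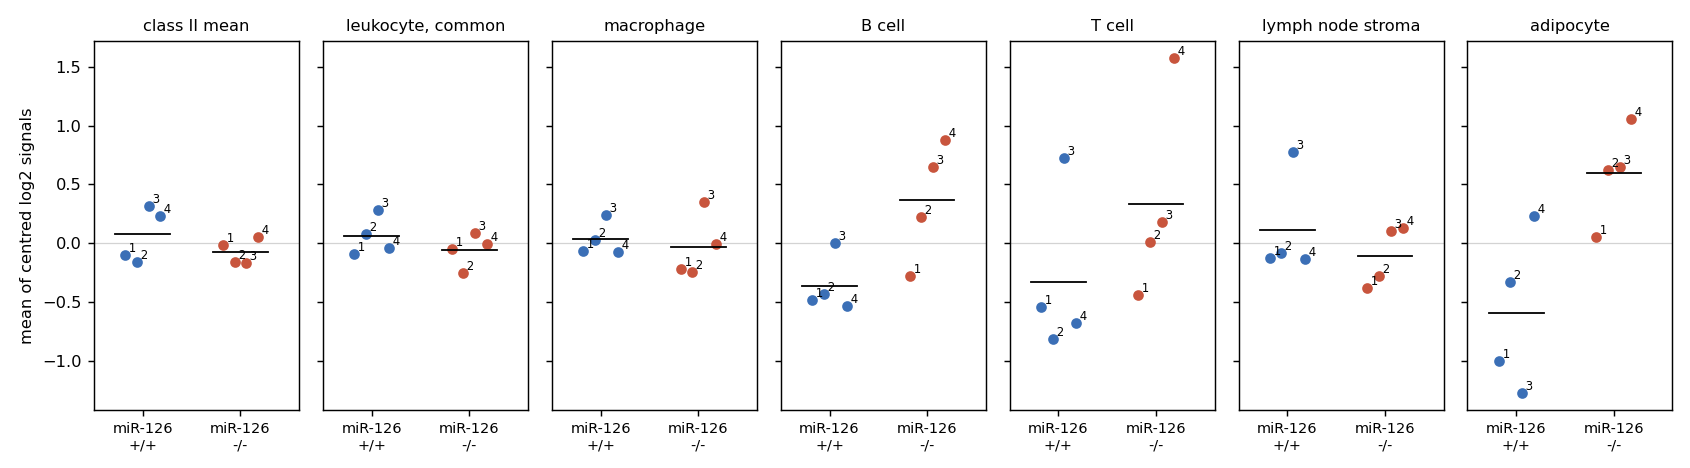
Mean log2 signal, centred over the 8 arrays (vertical axis), of the 4 genes of the class II mean and of 6 marker lists, with 1 point per mouse (numbered by replicate) and a line at the mean of each genotype. The lymph node stroma value of miR-126+/+ 3 (0.78) lies apart from the other miR-126+/+ mice, and the class II mean stays between -0.17 and 0.31.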

How the data were processed

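Per the labels' protocols, total RNA of each artery was labelled with Cy3 and hybridised to an Agilent mouse array. Per the file headers, the scanner software was Agilent Feature Extraction 10.7.3.1. The deposited values used here are processed signals, background-subtracted intensity values on a linear scale. A value table that the authors deposited gives these intensity values again, without scaling between arrays (column medians 41.7 to 57.5; median log2 difference from the scanner signal 0 on each array), so its scale is linear and it has no direction to settle.

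Control spots and outlier spots (146 to 216 per array) were left out, spots of a probe were averaged, and log2 signals were taken minus the array's 75th percentile (619.7 to 864.6 intensity units). No spot was saturated, and the number of arrays limits the precision. The filter kept the 32484 of 55681 probes that either genotype showed well above background in 3 or more of its 4 mice. The genotype difference was fitted in R 4.3.3 by limma 3.58.1 (lmFit, eBayes, 6 residual degrees of freedom, two-sided), with Benjamini-Hochberg adjustment over all probes and a threshold of 0.05. Counts over genes use each gene's brightest probe. Relations used exact two-sided permutation tests computed with numpy 2.4.6, with the ranks and the adjustment from scipy 1.17.1. The fit was tested on simulated data. Python 3.11.15, pandas 2.3.3 and matplotlib 3.10.9 served the rest. RefSeq accessions named 26413 probes (47.4%), and the others kept the name in the file.

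Members, lists and tests were chosen with earlier results of these data known. The genes named are all members, up to 3 genes of each of 5 lists with the smallest unadjusted p, the 5 genes most alike, and marker genes that did not pass the filter or that a result turns on. H2-Ea-ps, Rfx5, Xcr1, Ccl22, Ly75, Zbtb46, Batf3, Irf8, Clec9a, Cd209a, Cd207, Itgae and Siglech were named outside this rule, after their values were seen. The alternatives were normexp (offset 50), quantile scaling, another percentile, the deposited table, no or a stricter filter, 1 value per gene (brightest or mean), an intensity trend, array weights, a replicate block, leaving out a dim area of miR-126-/- 4, leaving out both arrays rich in skeletal muscle transcripts, and leaving out each array in turn.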

Additional observations from a re-analysis of the deposited data

Results flagged for a closer look

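In 8 of 74 groups of 4 mice, 1 mouse lay far from the others, where chance alone gives about 1 in 20. The values come from genes named above and from marker lists, and several share a mouse. For miR-126+/+ 3, Ciita was -2.66 (next highest -3.43), Ccr7 was 2.36 (next 1.17) and the mean of the lymph node stroma list was 0.78 (next -0.08). The summed signal of that list, almost wholly that of Ccl21a, was not the highest there. For miR-126+/+ 4, Itgax was 4.34, against 3.81 for the next highest. Cd40 was -1.11 in miR-126+/+ 2, below the next lowest value of -0.75. In miR-126-/- 4, Nfyb was 0.31 (next -0.01) and Tap1 was 0.39 (next 0.06). March1 was 2.89 in miR-126-/- 1, below the nearest value of 3.02, in a group whose whole range is narrow.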

How the results depend on the processing

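In limma 0 of the 12 member probes passed in the main setting (1 at an unadjusted p under 0.05) and in all 21 alternatives, and so did 0 of the genes on the 5 lists. The median over member genes ran from -0.23 to -0.06 and kept its sign; -0.06 was without miR-126+/+ 3. The count at an unadjusted p under 0.05 was 0 with normexp, 2 with array weights and 2 without both arrays rich in skeletal muscle transcripts (miR-126+/+ 2 and miR-126-/- 1), and ran from 0 to 2 with each array left out. Cd74 changed sign in 4 of 21 alternatives, Flt3 probe 2 in 3 of 18, and H2-DMa, H2-DMb1 and Ccr7 in 1 of 21 each. Over all probes the count called, 13 in the main setting, was 39 with normexp, 7 with the stricter filter, 27 with the brightest probe per gene, 8 with an intensity trend, 40 with array weights and 0 without those 2 arrays (2657 at an unadjusted p under 0.05). Leaving out 1 array gave 0 to 52. Of the miR-126+/+ arrays, the count was 7 without number 1, 3 without 2, 12 without 3 and 52 without 4. Of the miR-126-/- arrays, it was 2 without number 1, 0 without 2 (limma gave 2513 at an unadjusted p under 0.05 there), 3 without 3 and 11 without 4.

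Replicate numbers of the labels did not pair the mice: deviations of same-numbered mice had correlations of 0.175, -0.285, -0.042 and -0.00022. With the replicate number as a block, 0 probes were called over all (2883 at an unadjusted p under 0.05) and 0 member probes had an unadjusted p under 0.05. Flt3 probe 2 was not well above background on 1 array.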
